A study of Mus musculus with 2 samples.

Results

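The 10 genes examined encode the dual-specificity MAP kinase phosphatases of the mouse: Dusp1, Dusp2, Dusp4, Dusp5, Dusp6, Dusp7, Dusp8, Dusp9, Dusp10 and Dusp16. They were chosen by name from GENCODE M21 on mm10, and are 10 of 21853 protein-coding genes with an annotated coding transcript. Overlapping peaks of the deposited list that passed an irreproducible discovery rate (IDR) threshold of 0.05 were merged into regions. A region was given to a member when it lay in the gene body. It was also given when the member's transcription start site (TSS) was the nearest protein-coding one to its strongest summit, within 100 kb. This gave 60 regions to the members, of 26090 regions in all. The list without the IDR threshold, called the pseudoreplicated list, gave them 105 of 50037.

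ATAC-seq, in which a transposase inserts adapters into open chromatin, was applied to activated regulatory T cells of the male adult mouse at 4 months, with 1 donor named. The strain carries Foxp3CreERT2 and Rosa26YFP, a Cre under the control of the regulatory T cell gene Foxp3 and a fluorescent reporter. The labels give bone marrow hematopoietic cells as the origin of the primary cells and describe 2 libraries, technical replicates 1 and 2 of biological replicate 1. They form 1 group, and no control cells were analysed here, so the peaks describe 1 state and no change upon activation was measured. All lists come from 1 alignment. No value therefore has an SD, no difference was tested, and the read depth is unknown. At least 1 region was found at 6 of 6 regulatory T cell marker genes and at 58.6% of all genes, with 13 regions at Ctla4, 12 at Ikzf2, 7 at Il2ra, 4 at Tnfrsf18, 2 at Foxp3 and 1 at Cd4. A promoter region was present at 4 of these 6 and at all 3 matched Cd3 genes, against 48.1% of all genes. Of other cell types, 2 of 4 B cell markers had a region (Pax5 with 2 and Cd79a with 1), as did 1 of 4 myeloid markers (Itgam), 1 of 2 CD8 T cell markers (Cd8b1) and 1 of 2 NK cell markers (Klrb1c, with 8). Ms4a1, Cd14, Csf1r, Lyz2, Cd8a and Ncr1 had none. The part of other cells in the regions below was not tested.

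MAP kinase phosphatases remove phosphate from both the threonine and the tyrosine of the activation loop of ERK, JNK and p38, and so end MAP kinase signals. Dusp1, Dusp2, Dusp4 and Dusp5 encode nuclear enzymes, many of them transcribed as immediate early genes. Dusp6, Dusp7 and Dusp9 encode cytoplasmic enzymes that prefer ERK, and Dusp8, Dusp10 and Dusp16 encode enzymes that act mainly on JNK and p38. In T cells, signals from the antigen receptor run through Ras, ERK and JNK, and Dusp2 was first described in activated T cells.

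A promoter region, meaning a region within 1000 bp of a TSS of the gene, was present at 9 of 10 members, against 48.1% of all protein-coding genes. The exception was Dusp9. In the pseudoreplicated list the count was again 9, against 54.5% of all genes. At least 1 region of any kind was found at 9 members (58.6% of all genes) and at least 1 distal region, more than 1000 bp from every coding TSS, at 8 (31.2% of all genes). Of the 60 regions, 12 were promoter regions of their member and 48 were distal. Members had a median of 8 regions, against a median of 1 over all genes, and 6 of the 10 stood at or above the 95th percentile of all genes.

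**Figure D1:**
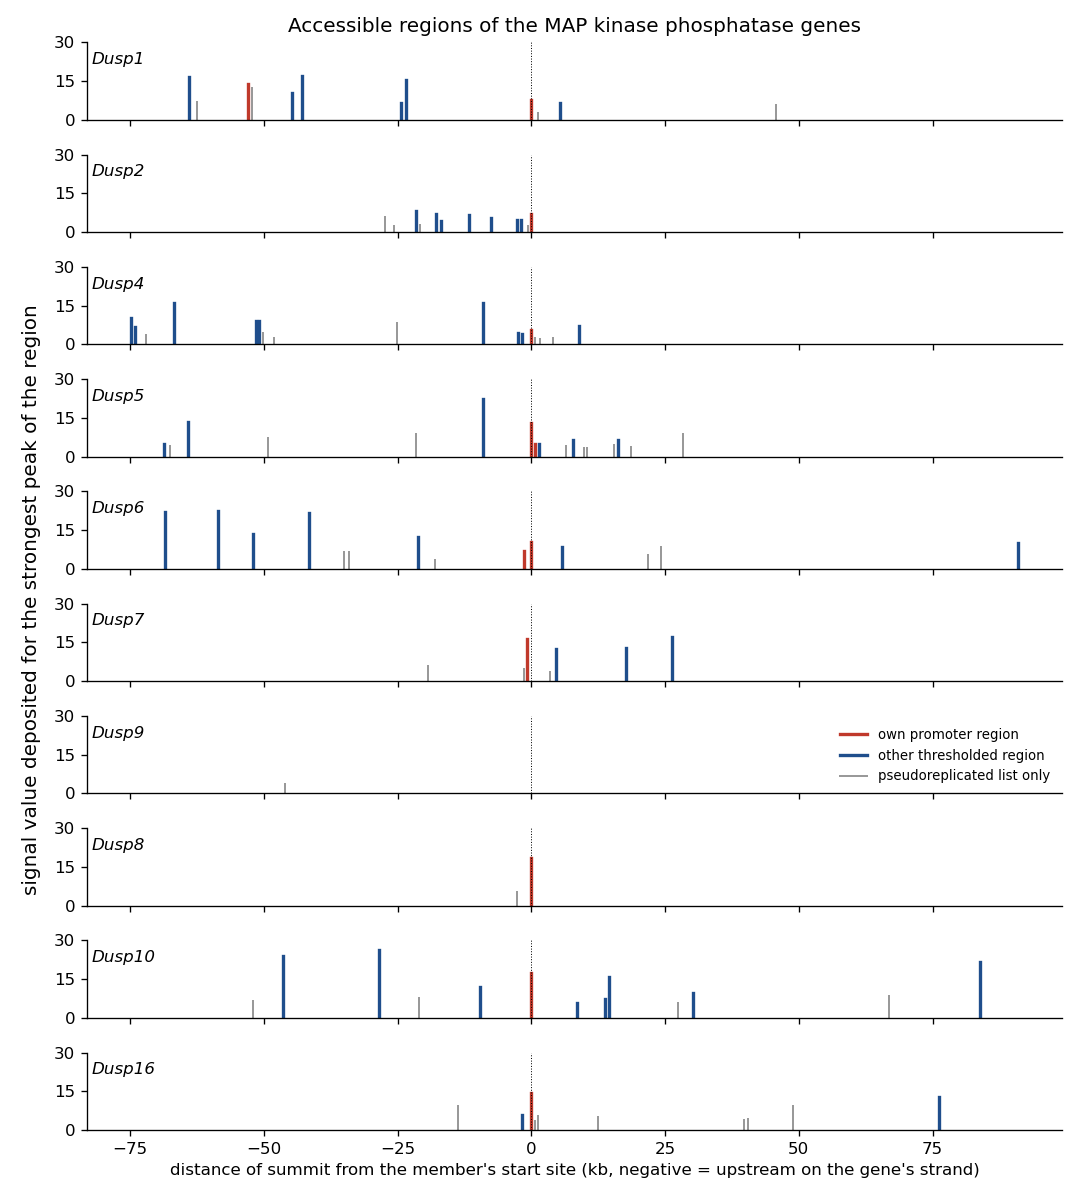
Each panel shows 1 member; the x axis is the distance in kb of each summit from the start site nearest to the member's main promoter region, negative upstream, and the height of a line is the deposited signal value. Red lines are own promoter regions, blue lines the other thresholded regions and grey lines regions of the pseudoreplicated list only. Dusp2 has a run of low lines upstream, Dusp6 and Dusp10 carry tall distal lines, and Dusp9 has a single grey line.

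Several promoters of the family hold cyclic AMP response elements (CRE) or a CArG box, the site of serum response factor, and these sequences are shown for that reason. The RefSeq promoter table (GRCm38.p6, the assembly of mm10) matched 8 of the 10 members, all but Dusp4 and Dusp9. Bases upstream of the transcribed part were taken, 5′ to 3′ on the strand of the gene. Capitals mark every match to the 19 motifs listed further on. The Dusp1 stretch covers chr17:26508520-26508722 on the minus strand, and its full CRE reads TGACGTCA. The Dusp8 stretch covers chr7:142095285-142095534 on the minus strand and holds that same element at 2 positions. The Dusp5 stretch covers chr19:53528895-53529108 on the plus strand and holds 2 CArG boxes, an NF-kB match and a CRE core near the TSS. The Dusp2 stretch at chr2:127335909-127336158 (plus strand) and the Dusp6 stretch at chr10:99262981-99263230 (plus strand) are given for contrast, since neither holds a CRE or a CArG box.
Dusp1: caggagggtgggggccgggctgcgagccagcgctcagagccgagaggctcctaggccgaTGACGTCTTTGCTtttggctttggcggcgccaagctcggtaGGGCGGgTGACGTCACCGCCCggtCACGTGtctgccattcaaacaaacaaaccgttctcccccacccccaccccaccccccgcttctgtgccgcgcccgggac
Dusp8: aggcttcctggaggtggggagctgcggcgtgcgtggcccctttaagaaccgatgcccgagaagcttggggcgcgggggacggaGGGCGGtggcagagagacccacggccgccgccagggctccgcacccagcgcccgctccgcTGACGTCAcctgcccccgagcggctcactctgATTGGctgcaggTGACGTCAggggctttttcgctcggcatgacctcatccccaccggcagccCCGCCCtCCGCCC
Dusp5: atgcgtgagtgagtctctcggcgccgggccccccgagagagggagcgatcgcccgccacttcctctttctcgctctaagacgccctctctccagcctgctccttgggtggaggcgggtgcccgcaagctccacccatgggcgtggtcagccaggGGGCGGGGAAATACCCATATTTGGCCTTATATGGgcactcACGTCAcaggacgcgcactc
Dusp2: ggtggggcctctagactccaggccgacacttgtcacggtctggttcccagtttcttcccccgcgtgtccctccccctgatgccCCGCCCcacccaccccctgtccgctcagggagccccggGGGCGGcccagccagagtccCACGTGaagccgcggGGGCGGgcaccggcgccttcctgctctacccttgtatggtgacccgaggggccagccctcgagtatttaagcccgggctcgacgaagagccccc
Dusp6: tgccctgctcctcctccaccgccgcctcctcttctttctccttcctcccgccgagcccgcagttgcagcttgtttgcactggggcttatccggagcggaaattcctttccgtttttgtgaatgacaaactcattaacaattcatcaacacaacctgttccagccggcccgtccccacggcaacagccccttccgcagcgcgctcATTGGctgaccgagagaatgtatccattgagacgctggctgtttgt

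Within the 250 bases upstream of the RefSeq start, the full CRE occurred in 2 of the 8 matched members (Dusp1 and Dusp8) and in 1.55% of 32851 promoters of the table. The CRE core TGACGT occurred in 3 of 8 (Dusp1, Dusp5 and Dusp8), against 6.47%, and the CArG box in 1 of 8 (Dusp5), against 1.47%. GC boxes, GGGCGG, were found in 6 of 8, against 32.7% of the table, which also holds promoters without an accessible region. The 8 promoter windows of the table had a median GC content of 67.8%, against 52.7% over the table, and a median CpG observed to expected ratio of 0.85, against 0.384. Against the accessible promoters the gap was smaller, with a median GC content of 64.7% around member promoter summits and 62.2% around all. Dusp7 had the highest GC content of the 8 at 78.7% and Dusp6 the lowest at 57.3%.

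The strongest distal summits were also read, since 7 members had their highest signal away from the promoter. The windows span the summit and 100 bases to each side of it, on the plus strand of GRCm38.p6, with the same capitals. The Dusp10 window lies upstream of the gene at chr1:184005732-184005932, the Dusp6 window at chr10:99204650-99204850 and the Dusp5 window at chr19:53520028-53520228; all 3 are intergenic. The Dusp10 window holds a Forkhead match, TGTTTAC, and a RUNX match. The Dusp6 window holds an IRF match at its centre. The Dusp5 window holds an ETS match, CAGGAAGT, and matches to the NFAT and NFY motifs. Windows of Dusp1, Dusp2 and Dusp7 were also read but are not printed. The Dusp1 window held no match, that of Dusp2 only an NFAT match and that of Dusp7 only an ETS match. The Dusp4 window was not extracted.
Dusp10 upstream: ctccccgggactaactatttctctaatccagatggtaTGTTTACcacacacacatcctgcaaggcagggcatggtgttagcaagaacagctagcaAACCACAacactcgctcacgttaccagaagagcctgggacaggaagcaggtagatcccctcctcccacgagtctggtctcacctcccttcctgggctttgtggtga
Dusp6 upstream: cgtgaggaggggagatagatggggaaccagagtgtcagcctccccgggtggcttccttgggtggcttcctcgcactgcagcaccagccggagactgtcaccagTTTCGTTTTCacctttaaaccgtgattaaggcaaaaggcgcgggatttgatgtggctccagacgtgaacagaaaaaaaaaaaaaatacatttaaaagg
Dusp5 upstream: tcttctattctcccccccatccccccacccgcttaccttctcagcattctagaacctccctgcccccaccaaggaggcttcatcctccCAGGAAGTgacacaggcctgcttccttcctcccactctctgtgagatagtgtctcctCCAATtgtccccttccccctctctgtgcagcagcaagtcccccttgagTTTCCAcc

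Signal below is the deposited enrichment value of the strongest peak of a region, and −log10 p is the peak caller's value for the same peak. Percentiles rank a region among all 15342 distal or all 10748 promoter regions. Distances are from the nearest coding TSS of the member, negative upstream.

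Among the nuclear enzymes, Dusp1 (chr17:26505590-26562128, minus strand) encodes the classical stress- and mitogen-induced phosphatase and had 8 regions with signals from 6.59 to 17.0. Its promoter region, chr17:26507502-26509265, was 1764 bp wide with 6 summits, wider than 99.3% of promoter regions. Its signal of 7.55 stood at percentile 9.39 and its −log10 p of 90.1 at percentile 35.0, so it was broad but not high. GENCODE also gives Dusp1 a long isoform that starts close to the TSS of Ergic1, which encodes a protein of the secretory pathway. A region at that start had a signal of 13.9 and lay 36 bp from the Ergic1 TSS. Regions inside the long isoform stood at −23.4 kb, with a signal of 15.5 and the highest −log10 p of the locus, 151, and at −24.4 kb (6.59). Closer to the start of the long isoform they stood 10.8 kb (17.0) and 8.96 kb (10.2) downstream of it and, in an intron of Ergic1, 10.3 kb upstream of it (16.7). The remaining region lay 5.37 kb downstream of the main start (6.65). In all, 3 of the 8 regions were nearer to the Ergic1 TSS than to any of Dusp1, and with the nearest TSS alone Dusp1 kept 5.

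Dusp2, a phosphatase of activated lymphocytes, is a gene of 2218 bp (chr2:127336159-127338376, plus strand) and had 8 regions. Its promoter region, chr2:127335845-127336468, had a signal of 7.15 with −log10 p at 135. The other 7 regions were all distal and upstream, at −2.00, −2.74, −7.45, −11.6, −16.9, −17.8 and −21.5 kb. Their signals were 4.73, 4.69, 5.46, 6.73, 4.39, 6.94 and 8.18 in that order, all between percentiles 1.56 and 17.3 of distal regions. By −log10 p the region at −21.5 kb, at 121, reached percentile 80.9. The next coding TSS lies 2.48 kb downstream, at Astl, and 65.4 kb upstream, at Stard7. The territory of Dusp2, the bases nearer to its TSS than to any other, spans 34.0 kb, and no gene among the tenth of genes with like territories had more regions. At an IDR of 0.01 or below Dusp2 kept 5 of its 8 regions.

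Dusp4 (chr8:34807297-34819894, plus strand), a nuclear ERK and JNK phosphatase, had the most regions of the family, 10, in a territory of 342 kb. Its promoter region, chr8:34806861-34807546, had the lowest signal of the members' main promoter regions, 5.60, at percentile 3.57. The −log10 p of that region, 90.1, stood at percentile 35.0. The highest signals stood upstream at −9.05 kb (15.9) and −66.8 kb (15.9), the latter 1341 bp wide with 5 summits. Around these were groups of lower regions: at −74.8 and −74.1 kb (10.3 and 6.54), at −51.5 and −50.9 kb (9.004 and 9.23), and at −2.48 and −1.75 kb (4.29 and 4.10). A region in the intron at 8.97 kb had a signal of 7.10. Within 50 kb Dusp4 kept 5 regions.

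Dusp5 (chr19:53529109-53542431, plus strand), a nuclear phosphatase specific for ERK, had 8 regions. Its promoter region, chr19:53528808-53529548, had a signal of 12.9 with −log10 p at 200, and a second, lower one stood at 0.735 kb (4.81). The region at −8.98 kb, whose summit sequence is printed above, had a signal of 22.3, at percentile 94.2. A region at −64.3 kb had a signal of 13.2 with −log10 p at 149. The remaining 4 distal regions were low, with signals of 4.90 at −68.6 kb, 4.91 at 1.40 kb, 6.41 at 7.83 kb and 6.61 at 16.3 kb. At an IDR of 0.01 or below 5 of the 8 regions were left.

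Among the cytoplasmic ERK phosphatases, Dusp6 (chr10:99263231-99267489, plus strand), the best known feedback inhibitor of ERK, had 9 regions. Its promoter region, chr10:99262751-99263363, had a signal of 10.2 with −log10 p at 232, and a second region upstream of it, 966 bp from the TSS, had 6.92 and 121. A row of 5 distal regions stood further upstream. Their signals were 21.98 at −68.4 kb, 22.5 at −58.5 kb, 13.3 at −52.0 kb, 21.6 at −41.5 kb and 12.4 at −21.2 kb. The first lies in an intron of Poc1b, a centriole gene, had a −log10 p of 310, at percentile 98.4, and 3 summits. The downstream regions, at 5.75 and 90.9 kb, had signals of 8.65 and 10.1. When TSSs of noncoding transcripts of protein-coding genes were also used, Dusp6 kept 5 regions.

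Dusp7 (chr9:106368632-106375724, plus strand) had 4 regions with signals in a narrow range, 12.5 to 16.9. The promoter region, chr9:106367617-106368062, had a signal of 16.2 with −log10 p at 219, but ended 570 bp short of the TSS, and no coding TSS of Dusp7 was covered. The other regions stood in an intron at 2.44 kb (12.5), at 15.6 kb (12.8) and at 24.1 kb (16.9). Dusp9 (chrX:73639419-73643514, plus strand), which is known mainly from placenta and development, had no thresholded region. The pseudoreplicated list gave it 1 region, 46.0 kb upstream, where the signal was 3.71 and the IDR 0.388. Of the 45 member regions found only in that list none had a higher IDR. Many shared this value: every member except Dusp8 had at least 1 such region with an IDR of 0.388.

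Among the JNK and p38 phosphatases, Dusp10 (chr1:184013302-184075636, plus strand) stood apart in strength. Its promoter region, chr1:184033449-184035161, was 1713 bp wide with 5 summits, had a signal of 17.5 with −log10 p at 607, above 99.6% of promoter regions by −log10 p. This region covers the downstream one of 2 coding TSSs. At the upstream TSS the thresholded list had no region, and the pseudoreplicated list had chr1:184012977-184013453 with a signal of 7.76. The highest signal of the family stood at −7.47 kb from that upstream TSS, 26.4 with a −log10 p of 419, at percentiles 98.7 and 99.6 of distal regions. Others stood at −25.4 kb (24.0), in the introns at 14.5 kb (15.9) and 30.1 kb (9.50), and at 83.8 kb (21.6). Low intron regions at 8.59 and 13.7 kb had signals of 5.89 and 7.35. One intron region, with 11.97, was nearer to the nested gene 1700056E22Rik, whose TSS is 9165 bp from its summit.

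Dusp16 (chr6:134715468-134792625, minus strand), a JNK phosphatase, had 3 regions. The promoter region, chr6:134792529-134792939, had a signal of 14.3 with −log10 p at 172. A region at −1.77 kb had 5.66, and one in the 3′ UTR at the other end of the gene had 12.9. At an IDR of 0.01 the promoter region alone was left, and the pseudoreplicated list held 10 regions. Dusp8 (chr7:142079490-142095843, minus strand) had 1 region, at its promoter, chr7:142094746-142095696, with 2 summits, a signal of 18.4 with −log10 p at 110. That was the highest signal among the members' promoter regions.

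**Figure D2:**
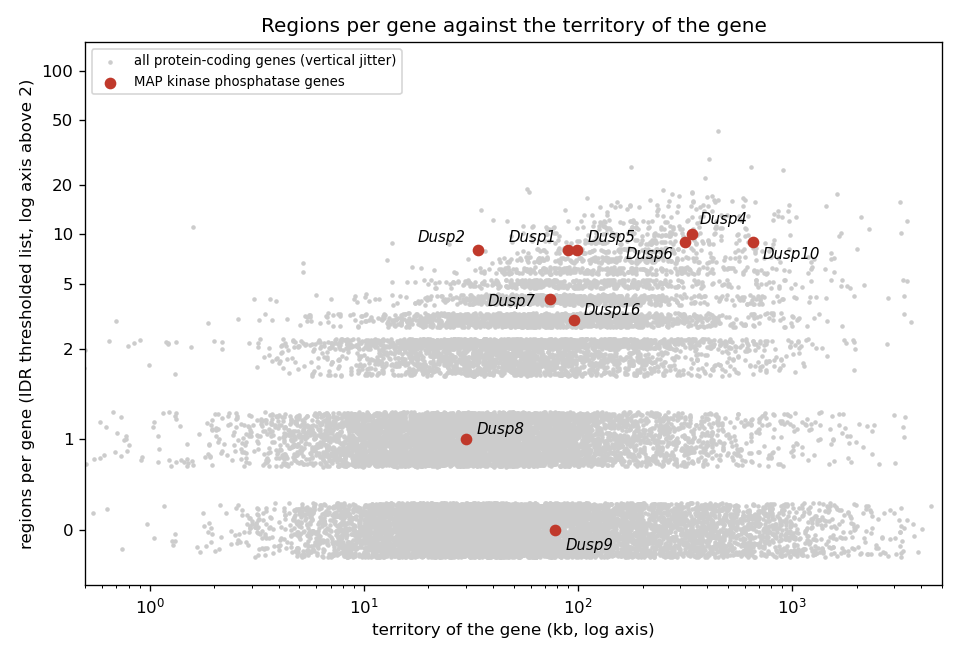
The x axis is the territory of each gene in kb (log axis) and the y axis its number of thresholded regions (log axis above 2); grey points are all protein-coding genes and red points the members. Dusp2 lies at the upper edge for its territory of 34.0 kb, Dusp4, Dusp6 and Dusp10 have wide territories, and Dusp8 and Dusp9 lie among the bulk of genes.

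The order of the members by regions was Dusp4 with 10, Dusp6 and Dusp10 with 9, Dusp1, Dusp2 and Dusp5 with 8, Dusp7 with 4, Dusp16 with 3, Dusp8 with 1 and Dusp9 with 0. With no replicates, neighbours in this order cannot be separated. Territory size differs across the family, from 30.1 kb at Dusp8 to 656 kb at Dusp10, with a median of 46.4 kb over all genes. Ranked among genes of like territory, Dusp2 stood at percentile 100, Dusp1 and Dusp5 at 97.2, Dusp4 at 96.4, and Dusp6 and Dusp10 at 95.5. Dusp7 stood at 90.2, Dusp16 at 78.3, Dusp8 at 61.7 and Dusp9 at 18.4. The 4 genes of nuclear enzymes held 34 of the 60 regions, and the other 2 classes 13 each. Distal regions of the nuclear class had the lowest median signal, 6.83 over 28 regions, against 13.1 over 10 in the cytoplasmic class and 12.4 over 10 in the JNK and p38 class. By −log10 p the medians were closer, 57.9, 83.6 and 62.1 in that order, against 57.9 over all distal regions. The members of the nuclear class were not alike. Distal signals were 6.59 to 17.0 at Dusp1, 4.39 to 8.18 at Dusp2, 4.10 to 15.9 at Dusp4 and 4.90 to 22.3 at Dusp5.

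Across the family the distal regions had a median signal of 9.81, against 12.6 over all distal regions, while their median −log10 p was 63.6, against 57.9. Own promoter regions had a median signal of 11.6, against 15.4, and a median −log10 p of 128, against 130. By signal the member regions therefore ranked lower than by −log10 p, with median percentiles of 28.1 and 52.7. The deposited files do not say against which background the signal was taken. Of the 8 members with both promoter and distal regions, 7 had their strongest region by signal in distal chromatin, against 50.7% of the 4672 genes with both kinds. By −log10 p the count was 3 of 8, against 31.7%. Neither share was matched for the number of distal regions per gene. That number ran from 2 at Dusp16 to 9 at Dusp4 in these 8 members. Of the 48 distal regions, 30 (62.5%) lay upstream of the nearest TSS of the member, against 44.2% of 13698 assigned distal regions. The split was uneven, with 7 of 7 upstream at Dusp2, 8 of 9 at Dusp4 and 5 of 7 at Dusp6. It was 3 of 6 at Dusp1 and at Dusp5, 3 of 8 at Dusp10, 1 of 2 at Dusp16 and 0 of 3 at Dusp7. The median distance of the 48 was 15.9 kb, against 17.5 kb. The sets are not quite alike, since the 48 include gene-body regions of Dusp1 and Dusp10 that are nearer to another gene. Those were measured from the member's TSS, and all assigned regions from the nearest TSS. By annotation 32 of the 48 were intergenic, 13 lay in an intron of the member itself, 2 in an intron of another gene and 1 in a 3′ UTR.

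**Figure D3:**
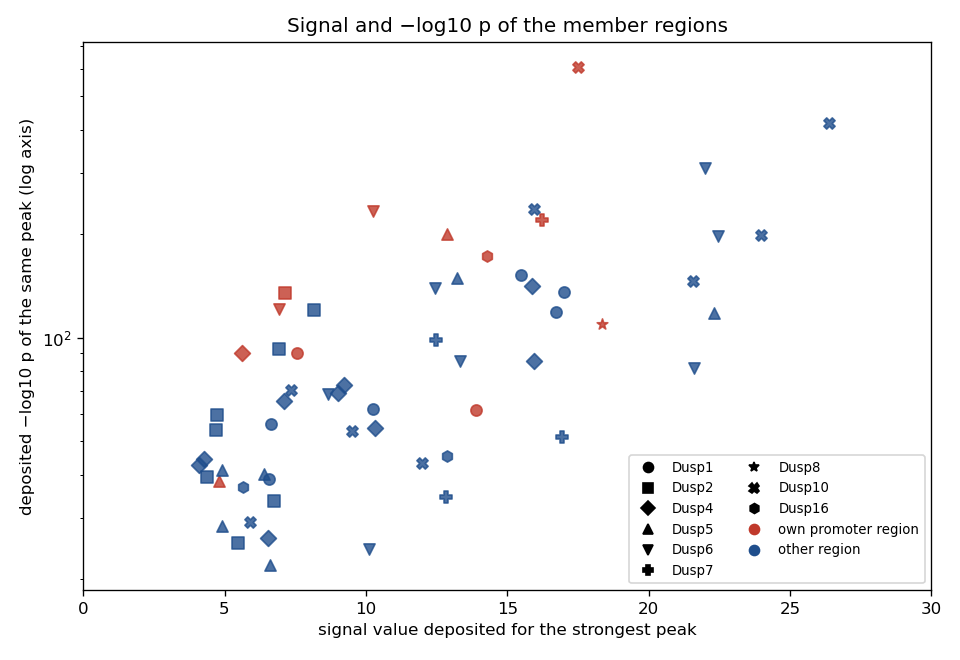
The x axis is the deposited signal value of each member region's strongest peak and the y axis its deposited −log10 p (log axis); the marker shape gives the member, red own promoter regions and blue the others. Dusp10 holds the highest point on each axis. The Dusp2 and Dusp4 promoters lie at low signal, with a −log10 p of 135 and 90.1, at percentiles 51.8 and 35.0 of promoter regions.

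The IDR compares 2 inputs, and the ranked list gives, for both, the value on the −log10 p scale by which peaks were ranked. For 59 of the 60 member regions these values were within 2-fold, with a median ratio of 1.22. The exception was the Dusp4 region at −1.75 kb, with 13.1 and 32.2, a ratio of 2.45. The IDR threshold keeps peaks that rank alike in these same inputs, so the closeness is partly set by the filter. The share over all regions was not computed, so it says nothing particular to the members. The member region just inside the threshold was that of Dusp5 at 16.3 kb (IDR 0.0481), and the one just outside was a Dusp4 region 50.2 kb upstream (IDR 0.0527). The 45 regions found only in the pseudoreplicated list had signals of 2.01 to 12.4 with a median of 4.76. They lay most often at Dusp5, with 9, and at Dusp4 and Dusp16, with 7 each. The 7 of Dusp16 included one 48 bp from an internal coding TSS, with a signal of 5.29.

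Motifs were searched on both strands within 100 bp of each summit, as plain letters. They were AP-1 (TGANTCA), CRE (TGACGTCA) and its core (TGACGT), ETS (CAGGAAGT and CCGGAAGT), RUNX (TGTGGTT), NFAT (TGGAAA), STAT (TTCNNNGAA), Forkhead (TGTTTAC), TCF/LEF (CTTTGNT), E-boxes (CAGCTG and CACGTG), the GC box (GGGCGG) and NFY (CCAAT). The 5 longer motifs were NF-kB (GGG, any 2 bases, TTTCC), IRF (GAAA on either side of any 2 bases), NRF1 (GCGC, any base, TGCGC), the CArG box and the CTCF core (CC, any 3 bases, AG, any 2 bases, GGC). The full CRE contains its core on both strands, so these counts overlap, as do windows of neighbouring summits. Intervals are 95% Wilson intervals and cover counting error only. They treat summits as independent, though many come from the same gene, and take no account of the number of motifs compared.

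At the 23 member summits within 1000 bp of a TSS, the CRE core was found at 6 (26.1%, interval 12.5% to 46.5%), against 7.58% of 24858 promoter summits. Counted by gene, 5 of 9 members with a promoter region held it there (Dusp1, Dusp4, Dusp5, Dusp8 and Dusp10), against 19.3% of 10521 genes with a promoter region. The full CRE was at the promoter summits of 2 of 9 (Dusp1 and Dusp8), against 5.25% of genes. CArG boxes were at 2 of 9, against 1.91% of genes. One is the Dusp5 promoter printed above, and the other is the region of Dusp1 at the Ergic1 TSS. The E-box CACGTG was at 5 summits (21.7%, against 6.90%), where overlapping windows of Dusp1 hold the same match. Counted by gene, this E-box was at 3 of 9 (Dusp1, Dusp2 and Dusp7), against 17.6% of genes. Within 50 bp of the summit it was at 0 of 23, against 4.18%. GC boxes were at 43.5%, against 46.7%. AP-1, the ETS motifs, RUNX and IRF were at 0 of the 23 promoter summits (upper bound 14.3%), against 3.51% for AP-1, 3.05% and 4.55% for the ETS motifs, 2.99% for RUNX and 2.21% for IRF.

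At the 86 distal member summits AP-1 was found at 12 (14.0%, interval 8.17% to 22.8%), against 11.5% of 23810 distal summits. Within 50 bp the order turned, with 6.98% of member summits against 7.27% of all. The AP-1 factors Fos and Jun lie downstream of the kinases that these phosphatases switch off. Of the 12, 4 were at Dusp6, 3 at Dusp5 and 2 at Dusp2, with 1 each at Dusp1, Dusp4 and Dusp16, and none of the 14 distal summits of Dusp10. NFAT, the calcium-dependent factor of T cell activation, was at 11 (12.8%, against 16.6%), 5 of them at Dusp10, and within 50 bp at 2 (2.33%, against 7.83%). RUNX was at 7 (8.14%, against 11.4%), NF-kB at 5 (5.81%, against 3.15%) and IRF at 5 (5.81%, against 5.67%), 4 of these at Dusp6. The CRE core was at 8 (9.30%, interval 4.79% to 17.3%, against 4.65%) and the CTCF core at 4 (4.65%, interval 1.82% to 11.4%, against 11.2%). The share of the CRE core over all summits lay just below the members' interval. Within 50 bp the CTCF core was at 2 member summits (2.33%, interval 0.64% to 8.09%), against 8.87%. The median GC content of the windows was 49.3% in the members and in all distal summits.

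**Figure D4:**
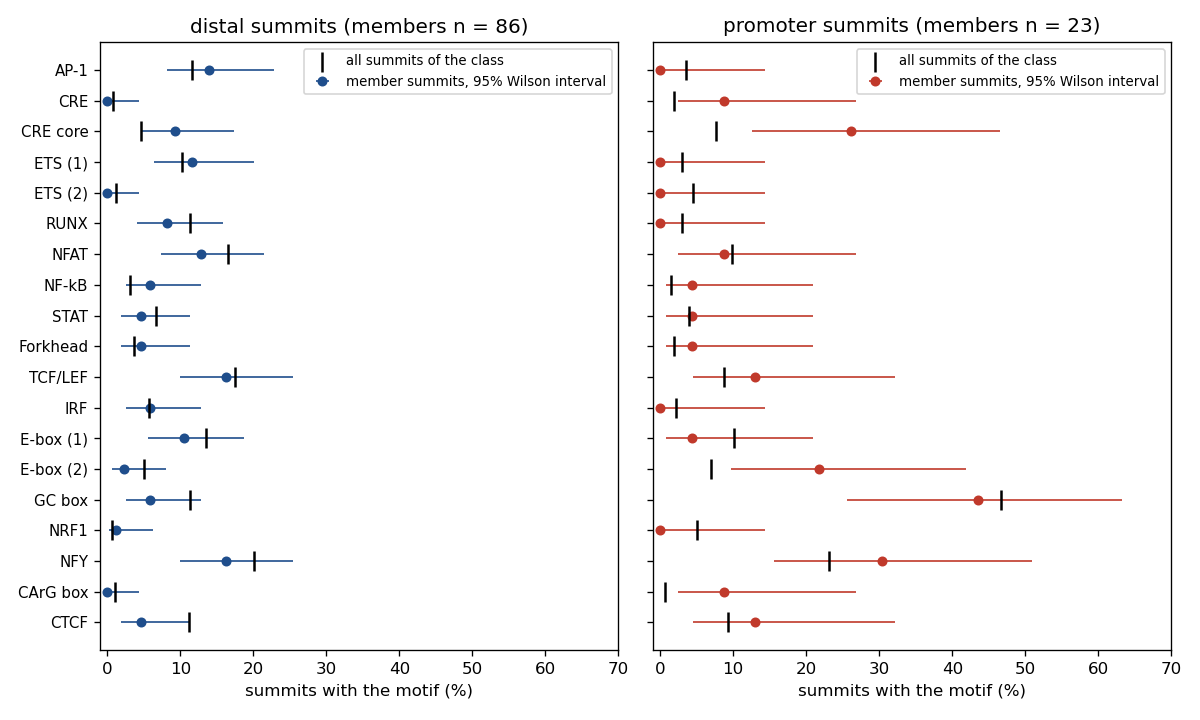
For distal summits (left) and promoter summits (right), points with bars give the percentage of member summits with each motif and its 95% Wilson interval, and black ticks the percentage of all summits of the class. ETS (1) is CAGGAAGT, ETS (2) CCGGAAGT, E-box (1) CAGCTG and E-box (2) CACGTG; the promoter CRE core, at 26.1% against 7.58%, is among the points whose bar leaves out the tick.

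The other genes of the pathway were described the same way, from lists of 77 genes of which 75 matched. A promoter region was present at 64 of the 75, against 48.1% of all genes. Of the kinases that are the substrates of the family, 7 of 10 ERK, JNK and p38 genes had a promoter region. These 10 genes had a median of 1 region, the same as over all genes, and at most 2, as at Mapk11, Mapk14 and Mapk9. Mapk10 and Mapk13 had none. The MAP kinase kinases had a promoter region at 7 of 7, a median of 1 and at most 3 regions (Map2k2 and Map2k3). The atypical dual-specificity phosphatases, relatives without the MAP kinase docking domain, had a promoter region at 9 of 14, a median of 1 and at most 3 (Dusp13). Among these Dusp14, Dusp15, Dusp21 and Dusp3 had no region.

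Higher counts stood upstream and downstream of these kinases. Of 12 MAP3 kinase and Raf genes all had a promoter region, with a median of 2.5 and the most at Map3k5 (12), Map3k8 (8), Map3k1 (6) and Araf (4). Of 10 genes of Ras activation all had one, with a median of 3.5 and the most at Rasgrp1 (16), which encodes the exchange factor that activates Ras in T cells. Rasa2 had 6 and Sos1 5. All 16 ERK-responsive transcription factor genes had one, with a median of 3.5 and the most at Elk3 (11) and Jun (7), followed by Egr1, Egr3, Fos and Fosb (6 each). Of 6 matched Sprouty and Spred genes, which also encode feedback inhibitors of Ras and ERK, 3 had a promoter region. Spred2 had 9 regions, Spred1 and Spry1 3 each, and Spred3 and Spry2 none. Against these medians, the nuclear phosphatase genes had a median of 8, the cytoplasmic ones 4 and the JNK and p38 ones 3. These list medians take no account of territory size.

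**Figure D5:**
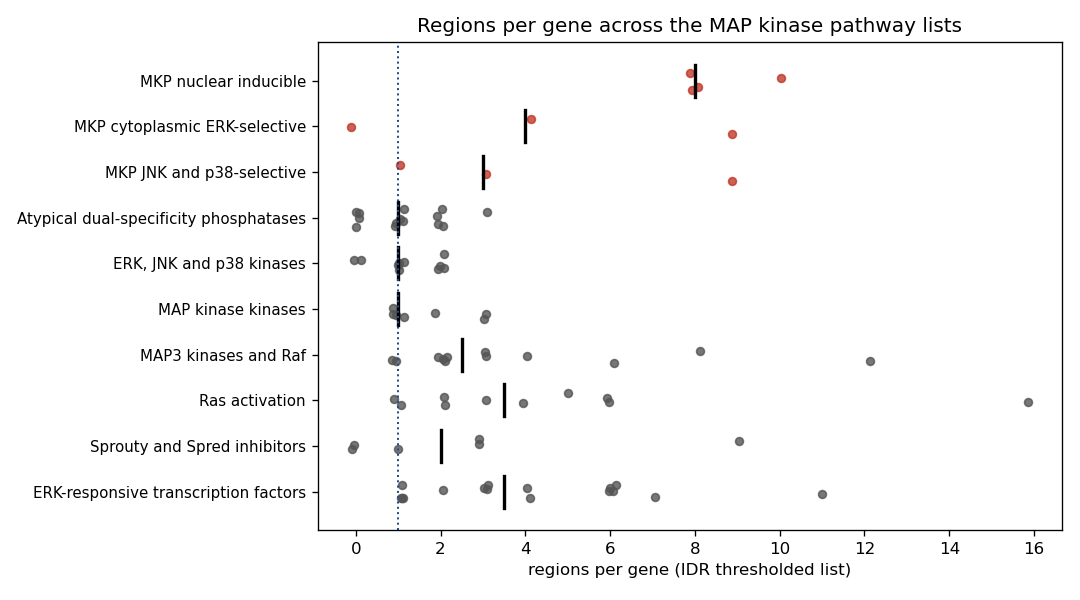
The x axis is the number of thresholded regions per gene; each point is a gene (small jitter), the black bar is the median of its list and the dotted line the median of all genes, 1. Red points are the members, with medians of 8, 4 and 3, and grey points the other pathway genes.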

How the data were processed

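Peak lists from 2 ATAC-seq libraries, technical replicates of 1 biological replicate, were read as deposited. Per the labels they are on mm10. Not given in the sources used here are the aligner, the peak caller, read filters, their versions and any shift of reads for the transposase. Signal in the deposited lists is the authors' enrichment per peak, and −log10 p is the authors' p-value per peak. The deposited ranked list also holds the global IDR on a log scale, a peak score that follows it up to its maximum, and, for inputs 1 and 2 of the IDR comparison, the value by which peaks were ranked, on the scale of −log10 p. Depth is unknown.

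Overlapping peaks (1 bp or more) were merged, and a region took the values of its peak of highest signal. TSSs were those of coding transcripts of protein-coding genes in GENCODE M21. Python 3.11.15, numpy 2.4.6, pandas 2.3.3, scipy 1.17.1 and matplotlib 3.10.9 were used, and merging, assignment and motif search were checked on simulated data. No test was run, since there is 1 group with no value per library. The members and lists were chosen with earlier results of these data known. Named were all 10 members and their regions, the top 4 genes per list by region count, at most 3 genes per list that lacked regions, and any gene nearest to a region in a member's body. Alternatives varied the peak list, the IDR, the assignment distance, the promoter window, the TSSs, the ranking value and the motif window. Some genes that this rule names are not reported here.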

Additional observations from a re-analysis of the deposited data

How the results depend on the processing

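The members' 60 regions became 105 in the pseudoreplicated list and 107 when each peak was counted, and lay between 43 and 56 under the other alternatives. The 48 distal regions became 87 in the pseudoreplicated list and 31 within 20 kb. The count of members whose strongest region was distal fell from 7 to 3 with −log10 p in place of signal. The median percentile of the regions, 28.1 by signal, was 39.8 in the pseudoreplicated list and 52.7 by −log10 p. With 50 bp to each side, AP-1 at distal summits fell from 14.0% to 6.98%, and over all distal summits from 11.5% to 7.27%. NFAT there fell from 12.8% to 2.33%, and the E-box CACGTG at promoter summits from 21.7% to 0. The 9 members with a promoter region became 8 with a window of 500 bp (Dusp7 lost) and with 1 TSS per gene (Dusp10 lost). The pathway count of 64 was 69 in the pseudoreplicated list and 60 at an IDR of 0.01. The use of TSSs of all transcripts was chosen after seeing the data. The causes were not tested. No paired analysis was possible because no value belongs to a single library, and for the same reason no replicate could be left out. Nearest-TSS assignment does not show which gene a distal region acts on.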
